A study of Mus musculus with 14 samples.

Results

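NF-κB p65 binding was compared between 3T3-L1 cells exposed to TNFα for 1 h and untreated 3T3-L1 cells, using the peak lists that the authors called from ChIP-seq. The p65 TNFα list holds 2404 peaks and the p65 control list 214, together 2618 of the 243429 listed regions in the series. Both lists were taken whole, and a peak was counted as shared when it overlapped a peak of the other list by at least 1 bp. The TNFα peaks were then described from the highest to the lowest findPeaks Score, which counts the tags in a peak with at most 1 tag per position. 3T3-L1 cells are mouse preadipocytes of an established line, which a hormone mix turns into adipocytes, and they were used after 4 days of differentiation. The cells of both groups carry no stated transgene or deletion, and they differ by the cytokine alone, as far as the labels say. Each group had 1 ChIP library for p65, and H3AcK27, an acetylated histone mark of active promoters and enhancers, was profiled in 1 library per group as well. Differences between the treatments therefore have no replicate check and no p-value, and intervals given below are 95% Wilson intervals that cover counting error over peaks only. Further p65 lists, from cells given forskolin (FSK) for 1 h alone or together with TNFα, were used for overlaps. Lists for the coactivator CRTC2 in control and TNFα-treated cells were used in the same way.

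p65, encoded by Rela, is the NF-κB subunit that carries a strong activation domain. In resting cells it is held in the cytoplasm by IκB proteins. TNFα activates the IκB kinase, IκB is degraded, and p65 dimers enter the nucleus and bind κB sites near genes for cytokines, chemokines, survival factors, and their own inhibitors. In fat tissue, TNFα is known as an inflammatory cytokine that interferes with insulin signaling and recruits immune cells through chemokine release.

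Sequences at 7 of the 8 best-scored p65 TNFα peaks that lie within 10 kb of a start site of a listed inflammatory gene are shown first, since they show which peaks hold a κB site and where. Each is the plus strand of GRCm38 read 5′ to 3′, 200 bp centered on the peak, and capitals mark a match on either strand to the strict κB letters GGAANTTCC or to the degenerate 10-letter κB consensus. The window of the Nfkb2 peak, the other of the 8, is not printed and holds 3 matches to the degenerate consensus.
Sod2: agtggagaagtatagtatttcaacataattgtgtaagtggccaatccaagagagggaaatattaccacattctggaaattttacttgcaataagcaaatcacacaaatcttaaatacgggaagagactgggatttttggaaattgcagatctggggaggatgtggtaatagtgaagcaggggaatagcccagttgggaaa
Cp: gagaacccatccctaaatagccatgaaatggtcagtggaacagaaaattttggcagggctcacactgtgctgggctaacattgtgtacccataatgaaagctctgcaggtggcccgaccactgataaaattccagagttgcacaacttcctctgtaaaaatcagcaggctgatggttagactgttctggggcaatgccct
Cxcl16: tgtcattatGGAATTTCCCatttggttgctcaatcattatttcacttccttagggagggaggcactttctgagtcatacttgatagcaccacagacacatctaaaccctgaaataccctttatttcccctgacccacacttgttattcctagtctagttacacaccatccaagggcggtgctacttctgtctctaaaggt
Ccl2: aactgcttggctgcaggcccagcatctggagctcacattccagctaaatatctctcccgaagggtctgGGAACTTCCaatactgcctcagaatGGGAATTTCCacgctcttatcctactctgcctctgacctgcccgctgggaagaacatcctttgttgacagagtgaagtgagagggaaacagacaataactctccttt
Nfkb1: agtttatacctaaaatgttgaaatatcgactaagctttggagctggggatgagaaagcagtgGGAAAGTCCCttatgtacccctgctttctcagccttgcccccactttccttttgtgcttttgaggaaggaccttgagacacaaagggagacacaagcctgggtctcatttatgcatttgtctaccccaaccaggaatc
Birc2: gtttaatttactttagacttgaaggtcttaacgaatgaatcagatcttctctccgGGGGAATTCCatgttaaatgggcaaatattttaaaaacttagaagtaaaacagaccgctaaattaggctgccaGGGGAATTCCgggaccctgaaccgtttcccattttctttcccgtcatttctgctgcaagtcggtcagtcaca
Cxcl1: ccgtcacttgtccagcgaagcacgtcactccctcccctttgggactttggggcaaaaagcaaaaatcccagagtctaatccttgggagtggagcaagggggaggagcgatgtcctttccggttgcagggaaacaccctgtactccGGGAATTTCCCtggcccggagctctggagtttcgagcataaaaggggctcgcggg
The windows lie at chr17:13010128-13010327 for Sod2, chr3:19954034-19954233 for Cp, chr11:70467980-70468179 for Cxcl16, chr11:82033124-82033323 for Ccl2, chr3:135670708-135670907 for Nfkb1, chr9:7838153-7838352 for Birc2, and chr5:90891029-90891228 for Cxcl1. Of the 7 printed windows, 5 hold at least 1 κB match and those of Sod2 and Cp hold none. The Ccl2 window has a strict match 1 bp from the peak center and another 27 bp to its left, while the match at Cxcl16 lies 86 bp from the center. The Birc2 window has the same 10 letters, GGGGAATTCC, at 39 bp to the left and 34 bp to the right of the center. In the Cxcl1 window the match GGGAATTTCC lies 51 bp to the right, on the side of the start site.

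The p65 libraries had nearly equal totals, 26904732 tags with TNFα and 26505421 in control cells, but they differed in how many tags remained when each position was counted once. With TNFα, 6106000 tags remained (22.7%), and in control cells 18504000 tags remained (69.8%), 3.03-fold more. The software set a lowest Score of 8 for the TNFα list and 12 for the control list. Of 8991 candidate peaks with TNFα, 6314 were removed for too little enrichment over the input of untreated cells, and of 7702 candidates in control cells 7390 were removed (96.0%). The listed peaks took up 0.316% of the tags with TNFα and 0.0138% in control cells. The part of library complexity and of the lowest Score in the length of the lists was not tested.

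The TNFα list was 11.2-fold longer than the control list, but most of its peaks have Scores that the control list could not contain. A Score of 8 was given to 1463 TNFα peaks (60.9%), a Score of 9 to 495, and a Score of 10 or 11 to 262. At Scores of 12 and more, which both lists could contain, TNFα cells have 184 peaks and control cells 214. The Score is not scaled to the tags kept, which were 3.03-fold more in control cells, so an equal Score is not an equal share of the library. The lists separate in their upper range. 99 TNFα peaks and 15 control peaks reach a Score of 14, and 32 TNFα peaks and 0 control peaks reach 20. The Score makes no subtraction of input, and 12 of these 32 peaks were under 8-fold over input. Of the 12, 3 overlap an H3AcK27 region of TNFα cells, compared with 19 of the other 20. The highest Score is 68 with TNFα and 19 in control cells, and the highest tag number is 121.5 normalized tags with TNFα and 10.6 in control cells. The TNFα values are those of the peaks nearest to Jun and Mdm2, which were 5.35-fold and 5.21-fold over input. Normalized tags are tags per 10000000 tags of the library, all copies included.

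**Figure D1:**
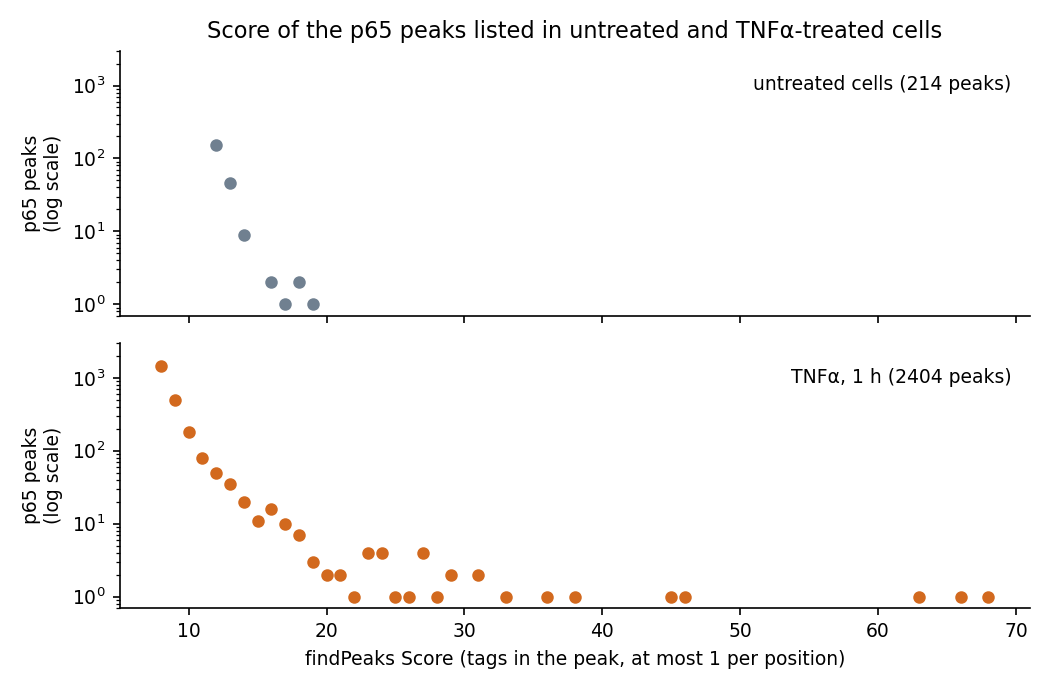
Number of p65 peaks (log scale) at each findPeaks Score in control cells (top, 214 peaks) and TNFα-treated cells (bottom, 2404 peaks), 1 library each. Control Scores run from 12 to 19, TNFα Scores from 8 to 68, and 32 TNFα peaks have a Score of 20 or more.

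Only 7 peaks were shared, 0.291% of the TNFα list and 3.27% of the control list (interval 1.59 to 6.60%), and each had more normalized tags with TNFα. Normalized tags include copies, and the median peak held 3.8 tags per unit of Score with TNFα and 1.39 in control cells. At the promoter of Nfkb2, which encodes the p100 precursor of p52, the peak at chr19:46304641-46304803 lies 22 bp upstream of the start site. It held 55 normalized tags with TNFα and 6.41 in control cells, an 8.58-fold ratio. The peak 70.5 kb from the start site of Snx18, a sorting nexin, held 46.5 and 5.28 normalized tags. The peak 129.9 kb downstream of the start of Ets2, which encodes an ETS transcription factor, held 38.7 and 6.04. These 3 peaks have the largest ratios, between 6.41-fold and 8.81-fold, and their Scores were 27, 27, and 21 with TNFα and 12 or 13 in control cells.
At the other 4 shared peaks the ratio was between 2.21-fold and 2.73-fold. The peak 88.7 kb downstream of Cebpb, an adipogenic transcription factor gene, held 27.9 normalized tags with TNFα and 10.6 in control cells, where it ranks 2 by Score. The peak near Acacb, acetyl-CoA carboxylase 2, held 17.5 and 6.41 normalized tags. The peak 2.0 kb from the start site of Junb, an AP-1 subunit, held 13.4 and 6.04, and the peak near Grik1, a glutamate receptor subunit, 16.7 and 7.55. By Score, where each position counts once, the values were 17 and 18 near Cebpb and 14 and 13 near Acacb, TNFα first. They were 16 and 14 near Grik1 and 9 and 13 near Junb. The Score is not scaled to the library, and control cells kept 3.03-fold more tags at 1 per position, so these Scores do not rank the 2 groups. The Nfkb2 peak was 35.3-fold over input with TNFα but 4.12-fold in control cells, just above the authors' limit of 4-fold. The best control peak, 19.5 kb upstream of a start site of the Wnt pathway factor gene Tcf7l2, has a Score of 19 and 9.81 normalized tags and was not listed with TNFα. The other best control peaks outside the shared set lie 94.4 kb from Scaf8 with a Score of 18, 56.3 kb from 1700029H14Rik with 17, and 177 kb from Egflam with 16.

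Among the 15 TNFα peaks with the highest Scores, 8 were at least 8-fold over input and 7 were not, and these groups differ in their overlaps with other lists. The peak in the gene body of Sod2, mitochondrial superoxide dismutase and a classical TNFα-induced gene, lies at chr17:13010146-13010308, 2.4 kb downstream of the start site, in an intron. It ranks 6 with a Score of 38 and holds 64.7 normalized tags, 57.6-fold over input. The peak 10.7 kb downstream of the start of Tmem176b, a membrane protein gene, has a Score of 36 and 69.1 normalized tags, 88.8-fold over input. Peaks followed 27.7 kb downstream of the start of Gdnf, a neurotrophic factor (Score 33, 44.6-fold), and 15.5 kb upstream of Csf1, the macrophage growth factor (Score 31, 11.4-fold).
The peak 52.9 kb upstream of Cxcl5, a neutrophil chemokine, has a Score of 31 and is 62.6-fold over input. The remaining peaks of this kind lie 38.4 kb from Vmn1r39 (Score 29, 25-fold), 53.5 kb from Zfp385b (Score 28, 24.5-fold), and at Nfkb2. Of these 8 peaks, 7 overlap an H3AcK27 region of TNFα cells and 7 a p65 peak called after combined FSK and TNFα, and the exception in both is the peak near Zfp385b.
The other 7 include all of the top 5, with Scores of 68, 66, 63, 46, and 45. In that order, these 5 lie nearest to Jun (48.75 kb), Mdm2 (37.6 kb), Gm10306 (339 kb), Tyrp1 (1680 kb), and Fggy (75.3 kb). Their fold over input is between 4.85 and 7.81, and the input itself has between 28 and 60 tags there, as counted. Those 74.25 kb from Ifng and 4.2 kb from Tnfsf15 have folds of 4.89 and 4.11. Of these 7 peaks, 2 overlap an H3AcK27 region of TNFα cells and 4 a p65 peak with FSK and TNFα. κB matches were about as frequent in both groups. The degenerate consensus was found at 5 of the 7 and 6 of the 8, and the strict letters at 2 and 3. Ranked by fold over input instead of Score, the best TNFα peaks lie 27.4 kb from Sik1 (187-fold) and 92.8 kb from Psmg1 (185-fold). The next lie near Cebpb (160.5-fold, shared with control cells) and 2.6 kb upstream of Csf2 (145-fold). Input at the peaks near Sik1, Psmg1, Cebpb, and Csf2 was 0.5 tags, so these folds rest on almost no input.

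Input density marks 4 segments of 2 Mb in which the input tags per kb of H3AcK27 regions exceed 5 times the median, between 106 and 110 Mb and between 116 and 118 Mb on chromosome 10 and between 94 and 96 Mb on chromosome 4. They hold 12 p65 TNFα peaks and 0 control peaks. Of the 15 best-scored TNFα peaks, 4 lie there, and of the best 100, 6. The part of these segments in the Scores was not tested.

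At the lower end, the list closes with peaks of Score 8. The 5 last-ranked hold between 3.72 and 4.09 normalized tags, 10 or 11 tags each, and lie nearest to Ttc17, Minos1, Sox14, Cdh11, and Spin2d. The one 523 bp upstream of the start site of Minos1, a mitochondrial inner membrane gene, overlaps H3AcK27 regions of both groups, as does the one near Ttc17. None of the 5 holds a κB match or was listed with FSK and TNFα.

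Genes of the NF-κB pathway itself had the highest share with a p65 TNFα peak within 10 kb among 9 gene lists compiled for this purpose. Of 15 genes for NF-κB subunits and inhibitors, 10 have a TNFα peak within 10 kb of a start site and 2 have a control peak. For all 21866 protein-coding genes the shares are 3.7% with TNFα and 0.425% in control cells. Among 122 genes of the 9 lists, 30 have a TNFα peak and 3 a control peak. The 3 with a control peak are Nfkb2, Junb, and Rela, whose control peak lies 2.4 kb downstream of a start site with a Score of 12 and which has no TNFα peak closer than 165 kb. These counts set a lowest Score of 8 with TNFα against 12 in control cells, and Scores are not scaled to the tags kept in each library. With a Score of at least 12 in both, 16 of the 122 genes have a TNFα peak and 3 a control peak, and in the NF-κB list 4 (Nfkb1, Nfkb2, Nfkbia, and Tnfaip3) and 2, compared with 0.334% of all genes with TNFα. At that Score limit the chemokine list had the highest share, 4 of 14 genes (28.6%), compared with 26.7% of the NF-κB list. These 4 chemokine genes lie on chromosomes 5 and 11. The 2 chromosomes hold 10.9% and 11.4% of the TNFα peaks of Score 12 or more and 5.8% and 4.6% of the genome. The part of the chromosome in this share was not tested. Within 50 kb the acute-phase list had the highest share, 9 of 10 genes, and the NF-κB list kept 10 of 15. Neighboring genes can share a peak at that distance, as Saa1 and Saa2 share their nearest, and Orm1 and Orm2 theirs. The lists were drawn up from known biology with results on these data in view, so the counts are a description.

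The precursor subunits are at the top of this group. Besides the Nfkb2 promoter peak, Nfkb1, which encodes p105 and p50, has a peak at chr3:135670726-135670888, 3.0 kb upstream of a start site and in an intron, with a Score of 17 and 31.2 normalized tags. Rela, Relb, and Rel have none within 10 kb.
Among the inhibitors, Nfkbia, which encodes IκBα, has a promoter peak 98 bp upstream of the start site with a Score of 13 and 14.5 normalized tags, 5.32-fold over input. Nfkbiz, which encodes the nuclear protein IκBζ, has a promoter peak 42 bp upstream with a Score of 11 and 23.0 normalized tags. Nfkbib, which encodes IκBβ, has a promoter peak of Score 8 and 14.5 normalized tags, and the peaks of Nfkbid and Bcl3 lie 9.6 kb and 4.3 kb from their start sites with Scores of 8 and 9. Of the genes for ubiquitin-editing regulators and their partners, which limit signaling upstream of IκB, 3 have peaks and Tnip2 has none closer than 149 kb. The nearest peak to the inhibitor gene Nfkbie lies 61.1 kb away. Tnfaip3, which encodes the enzyme A20, has a peak 13 bp downstream of its start site with a Score of 14 and 18.2 normalized tags and another in an intron with a Score of 8. Tnip1, whose product binds A20, has peaks of Score 10 and 9, and Cyld, a deubiquitinase gene, has a promoter peak of Score 9. Promoter peaks are thus found at Nfkb2, Nfkbia, Nfkbib, Nfkbiz, Tnfaip3, and Cyld.

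Of 14 chemokine genes, 4 have a TNFα peak within 10 kb. Ccl2, which encodes the monocyte attractant MCP-1, has a peak at chr11:82033142-82033304, 2.3 kb upstream, with a Score of 17 and 32.7 normalized tags. Cxcl1, a neutrophil attractant, has a promoter peak at chr5:90891047-90891209, 113 bp upstream, with a Score of 16 and 23.8 normalized tags, 61.1-fold over input. The Cxcl5 promoter peak, 82 bp upstream, has a Score of 15 and 19 normalized tags but is only 4.06-fold over input, and another peak lies 5.4 kb upstream. Cxcl16, a membrane-bound chemokine, has a peak 8.1 kb upstream with a Score of 23 and 24.9 normalized tags.
Within 50 kb the count of chemokine genes with a TNFα peak reached 8 of 14, compared with 12.3% of all genes at that distance. Neighboring genes can be counted through the same peak. Ccl2, Ccl7, and Ccl11 have the same nearest peak, and so do Cxcl1 and Cxcl2. Upstream of Ccl2, 4 peaks spread over chr11:82006830-82033304, and the most distant of them, 28.7 kb from the start site, has the highest Score, 27. The peak 13.6 kb upstream of Ccl5, a T-cell chemokine gene, has a Score of 21 and 28.6 normalized tags. Cxcl9, Cxcl10, and Ccl20 have no TNFα peak within 1 Mb.

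Of 12 genes for cytokines and colony-stimulating factors, 3 have a TNFα peak within 10 kb. Csf1 has 4 such peaks, with Scores of 16, 11, 9, and 8, and together with its neighbors makes the run with the most peaks of the list, 7 over chr3:107740350-107787752. Csf2, which encodes GM-CSF, has a peak 2.6 kb upstream with a Score of 15 and 28.2 normalized tags. Il15, which encodes a lymphocyte growth factor, has a promoter peak with a Score of 13 and 19.7 normalized tags. Il6, Lif, and Tnf were farther from a peak. The nearest to Il6 lies 18.1 kb upstream with a Score of 8, the nearest to Lif 33.0 kb downstream with a Score of 14, and the nearest to Tnf 58.9 kb upstream with a Score of 8.

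Of 19 genes for TNF receptor signaling and cell survival, 5 have a TNFα peak within 10 kb. Sod2 is far above the others with 64.7 normalized tags. Birc2, which encodes the ubiquitin ligase cIAP1, has a peak 1.2 kb upstream with a Score of 16 and 24.2 normalized tags, and Ripk2, a kinase of innate immune receptors, has a peak 5.0 kb upstream with a Score of 13 and 24.9. The peaks at Cflar, which encodes the caspase-8 inhibitor cFLIP, and at Map3k8, which encodes the kinase TPL2, have a Score of 8.

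Among the acute-phase proteins, 5 of 10 genes have a TNFα peak within 10 kb. Cp, which encodes the copper carrier ceruloplasmin, has a peak at chr3:19954052-19954214, 2.9 kb upstream, with a Score of 24 and 43.5 normalized tags, and a promoter peak with a Score of 12. Lcn2, which encodes lipocalin-2, has a promoter peak with a Score of 14 and 16.0 normalized tags, 82.2-fold over input. Saa3, a serum amyloid gene, has peaks of Score 10 and 8, and Hp, for haptoglobin, and C3, for complement C3, have peaks of Score 8. All 7 peaks at these 5 genes hold a C/EBP match, TTGCNNAA on either strand, compared with 6 of the 31 peaks at the other listed genes and 9.35% of all 200 bp windows of the genome. Only the Lcn2 and Hp peaks among the 7 hold a κB match of either kind.

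The remaining lists have few genes with a peak within 10 kb, and more within 50 kb. In the list of interferon regulatory factors and antigen presentation, 1 of 11 genes, B2m, which encodes the light chain of MHC class I, has a promoter peak of Score 8. Of 8 AP-1 genes, Junb has a peak, and of 21 adipocyte genes, Dgat2, an enzyme of triglyceride synthesis, has a peak 8.9 kb upstream with a Score of 8. Of 12 genes for adhesion, matrix, and prostaglandin synthesis, 0 have a TNFα peak within 10 kb, and the nearest to Icam1 lies 111 kb and to Vcam1 70.4 kb from a start site. Within 50 kb these lists have 6 of 11, 3 of 8, 6 of 21, and 3 of 12 genes with a TNFα peak, in the order given, compared with 12.3% of all genes. At 2 kb the 30 genes become 18, compared with 1.25% of all genes, and at 50 kb they become 62.

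**Figure D2:**
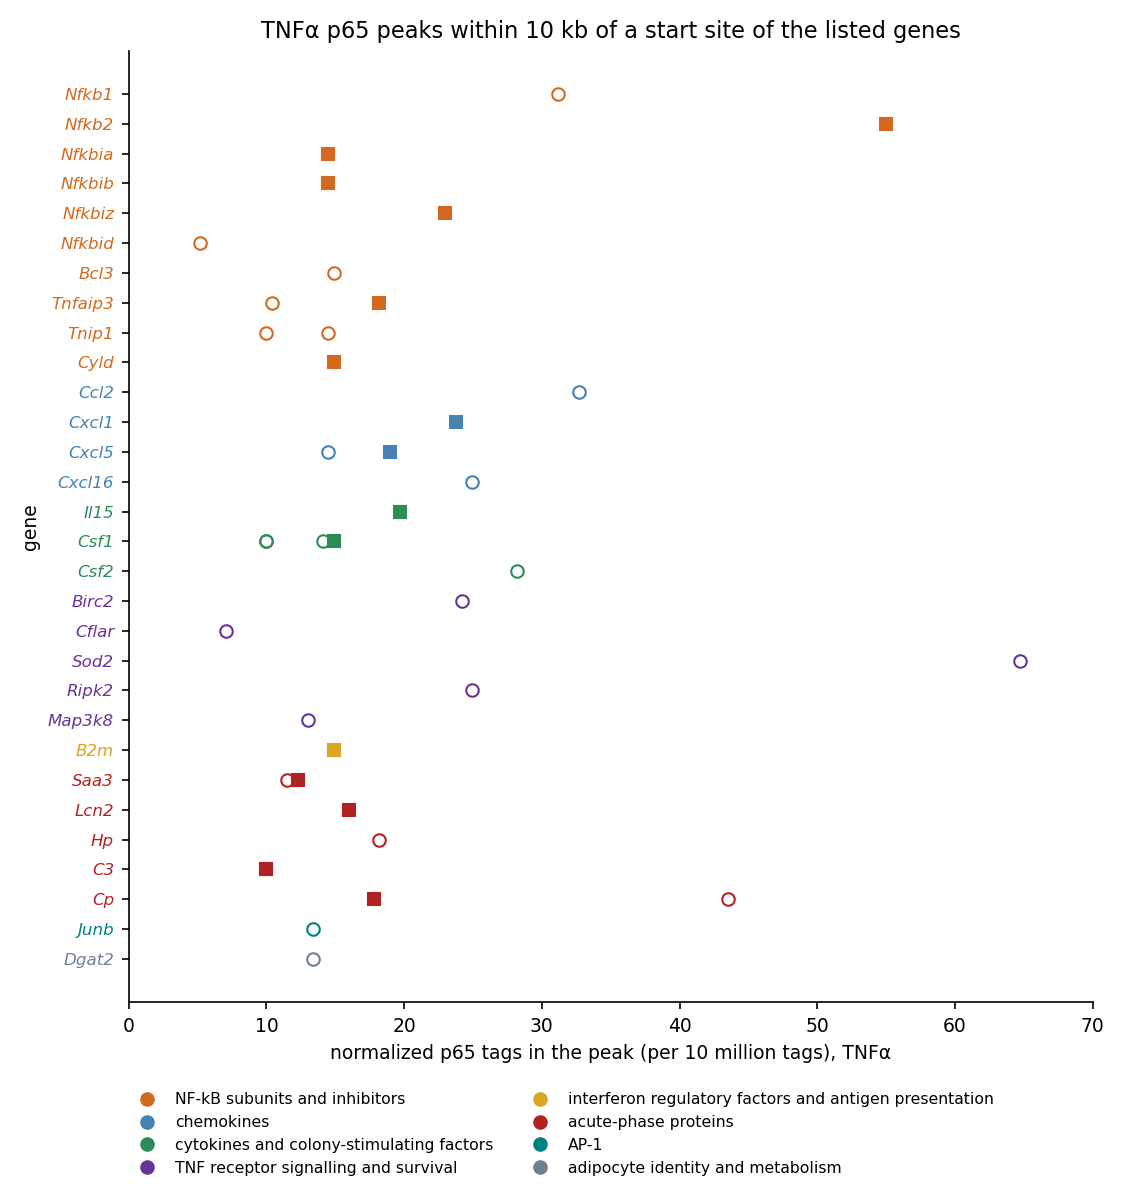
Normalized p65 tags (per 10000000 tags) of each TNFα peak within 10 kb of a start site of the 30 listed genes that have such a peak, 1 library, with filled squares for promoter peaks and open circles for other positions. Sod2 (64.7), Nfkb2 (55), and Cp (43.5) have the highest values, and most other peaks lie between 10.0 and 32.7.

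Of the 38 TNFα peaks at these 30 genes, 15 lie in a promoter, a count that the distance rule raises by itself. Regions of H3AcK27 in both groups overlap 34, compared with 35.9% of all TNFα peaks. FSK and TNFα gave a peak again at 22, compared with 11.3% of all, and 19 hold a κB match of either kind, compared with 14.1% of all. All TNFα peaks are not a matched background for these shares, since 29.3% of them lie within 10 kb of a start site. At 13 of the 30 genes the best peak belongs to the 100 best-scored, and at 8 it has the lowest Score of 8. The part of position and rank in the shares was not tested.

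TNFα p65 peaks overlapped H3AcK27 regions more often the higher they ranked by Score, and this held for the regions of control cells as well as for those of TNFα cells. Of all 2404 peaks, 37.8% overlapped a region of control cells and 39.6% a region of TNFα cells. Among the 100 best-scored peaks the shares were 75.0% (interval 65.7 to 82.5%) and 80.0% (71.1 to 86.7%). They were 61.25% and 64.25% for the next 400, 38.2% and 39.8% for the 500 after those, and 28.3% and 29.6% for the last 1404. The same windows moved by 20 kb overlapped the regions of control cells in 11.9% and those of TNFα cells in 13%, and the regions cover 4.32% and 4.19% of the genome. This share also rose with rank, from 11.1% and 11.2% for the last 1404 peaks to 20% and 24% for the best 100. Ranked by fold over input, the best 100 peaks overlapped regions of TNFα cells in 38.0%, so the order by Score does not carry over to that ranking. The highest folds rest on an input of 1 tag or less. Control p65 peaks overlapped them in 17.8% and 18.7%. Among the 75 of the best 100 peaks that were at least 8-fold over input, 69 overlapped a region of TNFα cells, compared with 11 of the other 25.

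Most acetylated p65 peaks were already acetylated without TNFα. Of 952 peaks in regions of TNFα cells, 863 also lay in a region of control cells and 89 did not (9.35%), while 45 of 908 peaks in regions of control cells lay in these only (4.96%). Over all regions, 17.4% of those of TNFα cells and 21.6% of those of control cells were not shared. The best-scored of the 89 are those nearest to Ets2 (129.9 kb away), Fscn1, Psd3, and Csf2, with Scores of 21, 17, 16, and 15. The Csf2 peak lies in a region of TNFα cells with 29.7 normalized H3AcK27 tags per kb. Since a region under the calling limit is not listed, absence from a list does not show absence of the mark.

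The acetylation density at p65 peaks was higher with TNFα than without it, by a small amount that followed rank. The ratio compares regions that were called separately in each library, so their widths differ. For the 863 peaks in regions of both lists, the median ratio of normalized H3AcK27 tags per kb, TNFα over control, was 1.13 (95% interval of the median 1.115 to 1.159), compared with 1.005 over all 41101 regions found in both lists. The median was 1.31 (1.24 to 1.41) for the 100 best-scored peaks, 1.21 for the next 400, 1.125 for the 500 after those, and 1.07 for the last 1404. In the 541 cases where the wider region was at most 25% wider than the other, the median was 1.12 (1.095 to 1.145), compared with 1.02 over all such regions. The regions at p65 peaks were also wider with TNFα in 67.8%, compared with 43.6% of all shared regions, and in total tags the median ratio was 1.26, compared with 0.987.
Counted by region, 855 shared regions hold a TNFα p65 peak, and 71.0% of them were denser with TNFα, compared with 50.4% of the 40246 that hold none. These sets are unlike in density, with medians of 71.2 and 33.3 tags per kb in TNFα cells. The part of this difference in the comparisons with other regions was not tested. At least 2-fold denser were 17 of the 863 peaks (1.97%), compared with 0.423% of all shared regions, but only 2 of these 17 lie in regions of similar width. Among the 541 peaks of similar width these 2 are 0.37%, compared with 0.165% of all such regions. In total tags 141 of the 863 reached 2-fold (16.3%), compared with 6.34% of all shared regions. At most 0.5 times the density of control cells was found for 6 of the 863 (0.695%), compared with 1.94% of all shared regions. The H3AcK27 libraries had close totals, with a ratio of 1.01, and 1 library each, so the size of the ratio has no replicate error.

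Named loci show the range of these ratios. Where the regions had nearly equal widths, the density ratio was 2.01 at Birc2, with 62.5 tags per kb over 13.4 kb in control cells and 125.8 over 13.7 kb with TNFα. At Ccl2 the densities were 96.4 and 147.5, 1.53-fold, and at Nfkb1 105.1 and 155.1, 1.48-fold. At Cp they were 220.5 and 234.8, 1.06-fold, and at Tmem176b 106.8 and 113.7, 1.06-fold.
Other regions differed in width, and their ratio depends on the measure. At Sod2 the region was 3.99 kb wide in control cells and 6.79 kb with TNFα, with 65.5 and 134.5 tags per kb and a total of 261.6 and 913.6 normalized tags. Upstream of Ccl5 a region of 0.501 kb in control cells met one of 5.16 kb with TNFα. The largest density ratio, 4.83-fold, was at a peak of Score 8 in the promoter of Csrnp1, a nuclear protein gene, where the widths were 2.54 kb and 8.25 kb. At the promoters of Cxcl1 and Nfkbia the density ratio was 0.744 and 0.802, but the regions were 2-fold and 1.80-fold wider with TNFα and the total tags were 1.49-fold and 1.44-fold higher. Of the 34 peaks at listed genes in regions of both groups, 31 had a density ratio above 1, with a median of 1.27. All 34 had more total tags with TNFα, with a median ratio of 1.5. For all 863 peaks in regions of both lists these medians were 1.13 and 1.26. Some of the 34 lie in the same region, such as those at Cp, Saa3, Cxcl5, and Tnfaip3, so a ratio can be counted more than once.

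**Figure D3:**
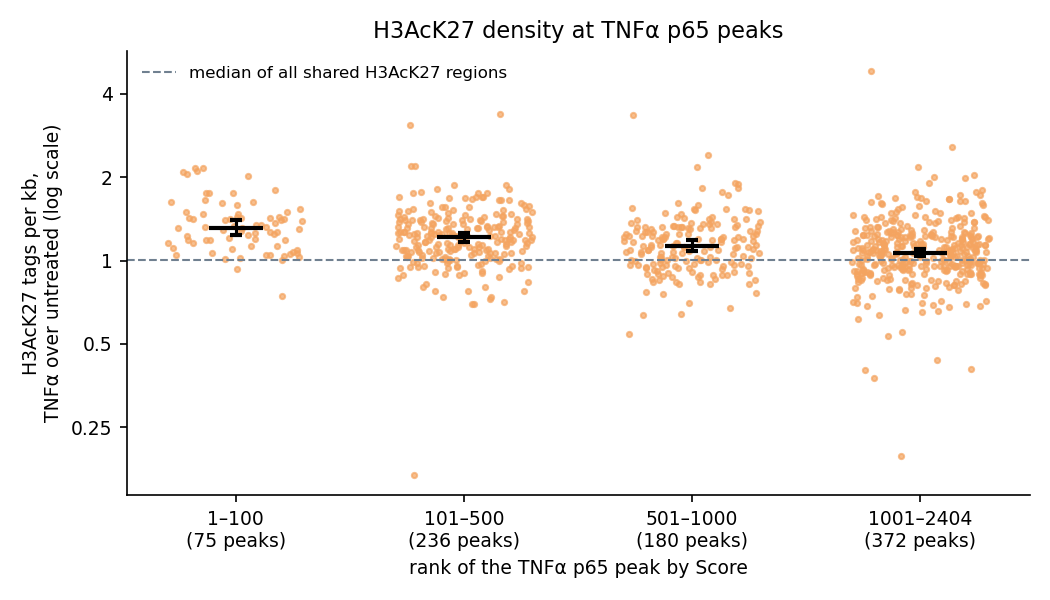
Ratio of normalized H3AcK27 tags per kb, TNFα over control (log scale), for the 863 TNFα p65 peaks in regions of both groups, called separately and of unequal width, by rank of the p65 Score, with medians and their 95% intervals in black and the median of all shared regions as a dashed line. The medians run from 1.31 for the best 100 to 1.07 for the last 1404, and single peaks spread on both sides of 1.

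κB sites were found at the best-scored TNFα peaks more often than lower in the list. The strict letters GGAANTTCC occurred on either strand in the 200 bp around 19% of the 100 best-scored peaks (interval 12.5 to 27.8%). The share was 7.25% for the next 400, 2.4% for the 500 after those, and 1.14% for the last 1404. In control p65 peaks it was 0.935%, 2 of 214 peaks. All 200 bp windows of the genome held these letters in 0.29%, and windows inside H3AcK27 regions of TNFα cells in 0.454%. Ranked by fold over input, the best 100 peaks held a strict match in 7.0%. The degenerate 10-letter κB consensus occurred at 52.0%, 30.0%, 12.6%, and 6.05% of TNFα peaks in the same order of ranks, at 1.87% of control peaks, and in 1.44% of all windows. The match was centered on the peaks. Of 22 strict sites within 500 bp of the 100 best-scored peaks, 17 lay within 50 bp of the center, and of 30 sites at the last 1404 peaks, 8 did.

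Letters of other factors that bind in adipocytes were more evenly spread. The AP-1 letters TGACTCA occurred at 17.0% of the 100 best-scored peaks and 7.19% of the last 1404, compared with 3.11% of all windows and 6.0% of windows in H3AcK27 regions. C/EBP letters occurred at 22.0% and 9.69%, compared with 9.35% of all windows and 8.53% of windows in H3AcK27 regions. The CRE letters TGACG occurred at 9.0% and 5.84%, compared with 4.9% of all windows and 7.34% of windows in H3AcK27 regions. These matches are letters in a window and do not show that a factor was bound.

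**Figure D4:**
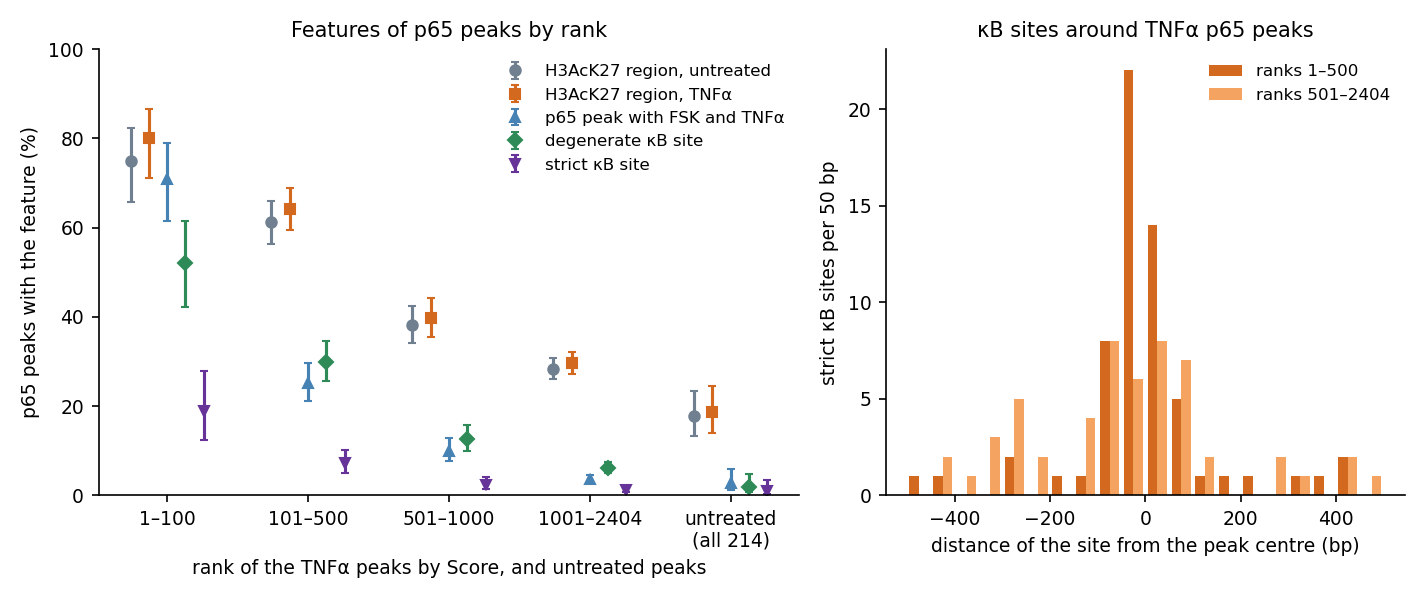
Left, share of p65 peaks (%) in an H3AcK27 region, in the p65 list of FSK and TNFα, or with a κB match in 200 bp, for TNFα peaks by rank of Score and for all 214 control peaks, with 95% Wilson intervals. Right, number of strict κB sites per 50 bp within 500 bp of the center of TNFα peaks; all 5 shares are lower in each later rank group, and sites of ranks 1 to 500 gather at the center.

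Lists from other libraries, which did not enter the choice of the peaks, show how often a TNFα p65 peak was found again. In cells given FSK, an activator of adenylyl cyclase, together with TNFα, a p65 peak overlapped 272 of the 2404 TNFα peaks, 11.3% (interval 10.1 to 12.6%). The share was 71.0% (61.5 to 79.0%) for the 100 best-scored, 25.25% for the next 400, 10.0% for the 500 after those, and 3.56% for the last 1404. Of the 1463 peaks with a Score of 8, 56 were found again. The p65 list of cells given FSK alone overlapped 1.46% of the TNFα peaks and 17.0% of the 100 best. Peaks of CRTC2, the CREB coactivator, called with TNFα overlapped 5.07% of the TNFα p65 peaks, 18% of the 100 best, and 5.61% of the control p65 peaks. Among the named loci, the promoters of Cxcl1, Cxcl5, Csf1, Tnfaip3, Cp, and B2m carried both p65 and CRTC2 peaks with TNFα, and those of Cxcl5, Csf1, and B2m also had a CRTC2 peak in control cells.

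Most TNFα p65 peaks lay away from promoters. Of all peaks, 5.03% had their midpoint in a promoter, between 1000 bp upstream and 100 bp downstream of a protein-coding start site, 2.91% in another exon, 45.4% in an intron, and 46.7% between genes. Among the 100 best-scored, 7.0% lay in a promoter (interval 3.43 to 13.8%) and 59.0% between genes (49.2 to 68.1%), while control peaks lay in a promoter in 8.88% (5.76 to 13.5%). The median distance to the nearest start site was 28.7 kb with TNFα and 29.1 kb in control cells. There were 20 runs of at least 3 TNFα peaks with gaps of at most 20 kb, and those at Csf1 and Ccl2 have the highest Scores among them.

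The peaks were unevenly spread over the chromosomes. Chromosome 3 holds 456 of the 2404 TNFα peaks (19%) and 5.68% of the H3AcK27 regions of control cells. Chromosomes 15, 11, and 5 follow with 227, 221, and 196 peaks. Chromosome 3 has 20.7% of the peaks with a Score of 8, 10.9% of those with a Score of at least 12, and 55 of the 214 control peaks (25.7%). On chromosome 15 these TNFα shares were 9.02% and 7.61%. The order was reversed on chromosomes 5 (8.34% and 10.9%), 11 (8.41% and 11.4%), and 4 (3.49% and 10.9%). Chromosomes 3, 5, 11, and 15 together hold 46.5% of the TNFα peaks of Score 8, 40.8% of those of Score 12 or more, and 56.5% of the control peaks. The same 4 chromosomes have a high input density in the H3AcK27 regions of control cells, with 19.7, 18, 17.0, and 16.6 input tags per kb, as counted, on chromosomes 3, 15, 11, and 5. Across 20 chromosomes of this 1 TNFα library and its input, the number of TNFα peaks per Mb followed the input density with a Spearman's rho of 0.884 and a Pearson's r of 0.725. Without the 4 segments of high input the values were 0.932 and 0.946. The part of input density in the number of peaks was not tested. Outside these 4 chromosomes, 42.2% of the TNFα peaks overlapped an H3AcK27 region of TNFα cells and 12.3% were found again with FSK and TNFα, compared with 36.6% and 10.2% on them.

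**Figure D5:**
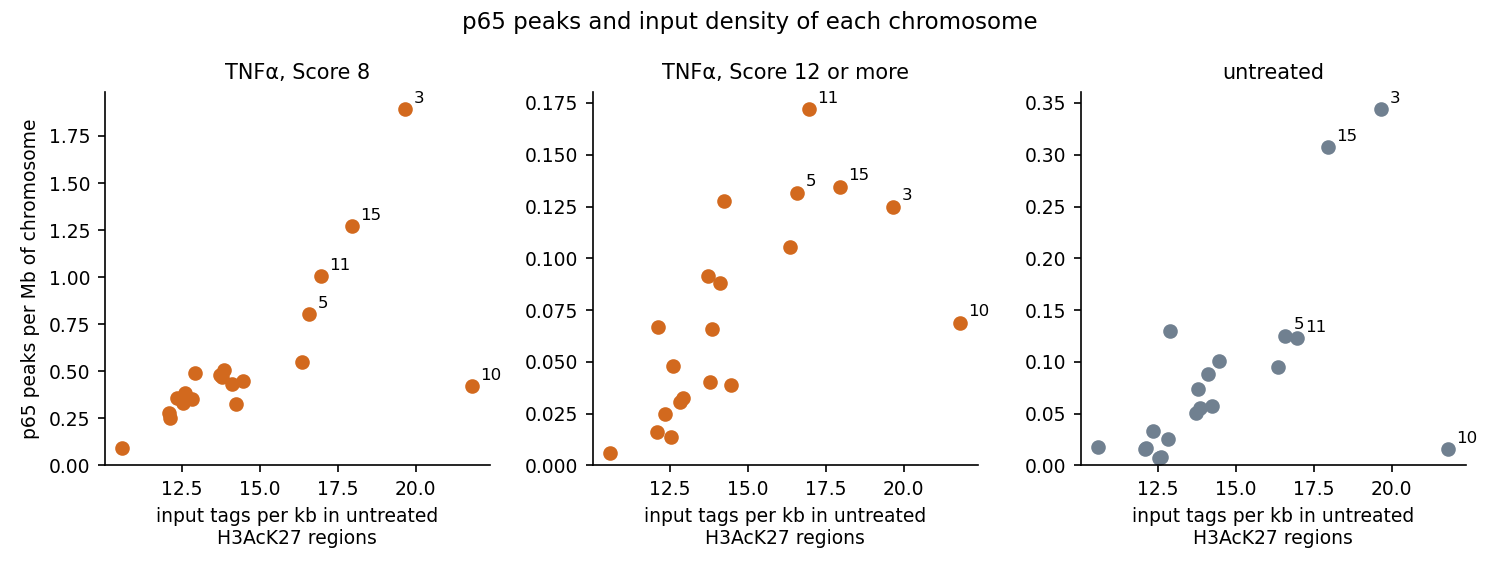
p65 peaks per Mb of each of 20 chromosomes against the input tags per kb, as counted, in its H3AcK27 regions of control cells, for TNFα peaks of Score 8, TNFα peaks of Score 12 or more, and control peaks, with chromosomes 3, 5, 10, 11, and 15 numbered. Chromosome 3 lies highest for peaks of Score 8 and for control peaks, and chromosome 10, which holds 3 of the 4 high-input segments, lies to the right of the others.

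The labelled cell type was checked by H3AcK27 regions over the start sites of marker genes. Of 8 adipocyte markers, 3 had a region in both groups (Pparg, Fabp4, and Lpl), and Cebpa, Adipoq, Plin1, Cd36, and Cidec had none within 1 kb of a start site in either. Of 6 preadipocyte markers, 5 had a region in both groups (Pdgfra, Dlk1, Ly6a, Thy1, and Col1a1). Of 6 macrophage markers, Csf1r had a region in control cells, and Csf1r and Cd68 with TNFα, while Ptprc, Adgre1, Itgam, and Lyz2 had none. None of 5 endothelial markers had a region over a start site, but within 1 kb Cdh5 had one in both groups and Pecam1 with TNFα. Among all protein-coding genes 49.5% had one in control cells. Regions were thus found over more of the preadipocyte than of the adipocyte markers, which goes against the label in part, and the peaks above are those of cells labelled as adipocytes.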

How the data were processed

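Peak lists from ChIP-seq of 3T3-L1 cells were used for p65 with TNFα and in control cells, and the H3AcK27, CRTC2, and other p65 lists for overlaps. The authors aligned reads with STAR to mm10 and called peaks with HOMER, per the labels; versions are not given in the sources used here. The authors scaled the deposited signal of a peak to 10000000 tags per library, whereas the input signal used here was deposited as counted tags. In the deposited Score the authors allowed 1 tag per position and made no subtraction of input. Deposited fold values are ratios to the input or to the surrounding 10 kb, and the authors kept p65 peaks of at least 4-fold at a false discovery rate of 0.001. Both p65 lists were called against the input of untreated cells.

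Coordinates were read as GRCm38, with the protein-coding start sites of GENCODE mouse release 21 and sequences of the GRCm38 assembly from RefSeq. Motifs were matched in 200 bp on both strands. Peaks were ranked by Score, with ties ordered by normalized tags. The loci named are the 15 best-scored TNFα peaks, all shared peaks, all genes of the lists with a TNFα peak within 10 kb, the 5 best control peaks, and the last-ranked TNFα peaks; loci named for fold over input, a called H3AcK27 difference, or a gap to the nearest peak were chosen after their values were seen. The members and lists were chosen with earlier results of these data known. Overlap, motif, and interval code was tested on simulated data. Alternatives covered thresholds, region extent, chromosomes, overlap rules, ranking, distances, and motif windows. Depth was 26904732 and 26505421 tags, and a peak under the lowest Score is not listed. The software was matplotlib 3.10.9, pandas 2.3.3, scipy 1.17.1, numpy 2.4.6, and pysam 0.24.0 under Python 3.11.15. Sequencing reads were not analysed here.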

Additional observations from a re-analysis of the deposited data

How the results depend on the processing

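With 1 library per group there is no replicate to leave out. No paired analysis was possible because each group has 1 library and no test was made. Of 133 values under alternative settings for 16 results, 88 stayed within 1.5 times the main count or inside its interval and 45 moved. Settings that keep fewer peaks or regions lower the counts by construction, and the cause of the other shifts was not tested. A Score of at least 12 in both lists, an alternative chosen after seeing the data, left 184 TNFα peaks. Of these 79.9% lay in TNFα and 73.9% in control H3AcK27 regions, with a median density ratio of 1.26 and 7 at least 2-fold denser, 6.52% lay in promoters, 15.2% had a strict κB site, 56.0% were found again with FSK and TNFα and 14.1% lay in the CRTC2 TNFα list, and 16 listed genes had a TNFα peak. Leaving out chromosomes 3, 5, 11, and 15, also chosen after seeing the data, left 1304 TNFα and 93 control peaks, with 42.2% in TNFα and 39.8% in control H3AcK27 regions and a median ratio of 1.16. Total tags in place of tags per kb, chosen after seeing the data as well, gave a median H3AcK27 ratio of 1.26 and 141 peaks at least 2-fold higher, and regions of similar width, likewise chosen later, left 2 peaks at least 2-fold denser. Keeping peaks with at most 4 tags per unit of Score left 1422 TNFα peaks and 3 shared peaks, with 36.4% and 34.5% in TNFα and control regions, 7 regions at least 2-fold denser, 14 listed genes, 2.46% with a κB site, and 9.28% found again with FSK and TNFα. Keeping p65 peaks of at least 8-fold over input left 111 control peaks, 4 shared peaks, and 1 listed gene with a control peak, and put 92.0% of the best 100 in TNFα regions. H3AcK27 regions of at least 8-fold over input held 28.3% of the TNFα peaks and 68.0% of the best 100 (TNFα regions) and 25.4% (control regions), with 4 at least 2-fold denser. The best 100 by fold over input lay in TNFα regions in 38.0% and had a strict κB site in 7.0%. Listed genes numbered 18 at 2 kb and 62 at 50 kb with TNFα, compared with 1.25% and 12.3% of all genes. In control cells they numbered 1 and 5, compared with 0.169% and 1.48% of all genes. A strict κB site was found in 1.91% of 100 bp windows, and the degenerate consensus in 13.3% of all peaks and 52.0% of the best 100. With midpoints within 100 bp, 3.41% of TNFα peaks lay in the CRTC2 list. Promoters of 1000 bp on either side took 6.9% of the peaks. The 1463 TNFα peaks of Score 8 lie at the lowest Score of their list, and a site under that Score is not listed.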
